A study of Mus musculus with 55 samples.

Results

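The 10 genes described here, Adipoq, Lep, Retn, Cfd, Plin1, Thrsp, Car3, Mrap, Cidea and Ucp1, belong to fat tissue and were followed mouse by mouse through 55 arrays of whole lung RNA. They were chosen by measured values of these arrays, the differences of mice given 10 ppb arsenite in water or food on the AIN-76A diet from their controls, so the values in those groups are a description and carry no test. Of the 10 genes, 8 had a probe set (a group of short probes that reads 1 transcript) carrying their symbol alone, of 18193 genes that did in all. Plin1, which coats lipid droplets, and Cfd, the serum protease adipsin, had none in the annotation used and have no value here. The 8 genes had 14 probe sets. Each gene was read by the one with the highest mean, and 5 of the 8 genes had only 1.

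All mice were male C57BL/6, 6 weeks old, with 2 weeks on their diet before treatment, and the 12 groups differ in diet, sodium arsenite and injection. In 35 mice arsenite or none was given with food or water for 5 weeks. On AIN-76A, a purified diet, the groups were AIN control (n = 5), 10 ppb in food (n = 5), 10 ppb in water (n = 4) and 100 ppb in water (n = 4). On LRD-5001, a standard chow, they were LRD control (n = 4), 10 ppb in food (n = 5), 10 ppb in water (n = 5) and 100 ppb in water (n = 3). Another 20 mice on AIN-76A received an intraperitoneal injection and were taken 8 h later: saline, dexamethasone at 1 mg/kg, arsenite at 1 mg/kg, or dexamethasone and arsenite together, with 5 mice each. Values are on the log2 scale, so a difference of 1 is a 2-fold difference.

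White fat cells store triglyceride in 1 large lipid droplet and secrete hormones such as adiponectin, leptin and resistin. Brown fat cells hold many small droplets and mitochondria and make heat through uncoupling protein 1, the product of Ucp1, whose transcript is a defining marker of brown and beige fat. Neither tissue is part of the lung's gas exchange surface, but both lie in the chest beside the lung, heart, thymus and great vessels. The lung markers of these arrays were at high levels in every kept array: Sftpc, which encodes surfactant protein C, read from 13.96 to 14.32, and Ager, a type I cell gene, from 13.27 to 14.20.

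Arrays of narrow spread were set apart before the results. In AIN 100 ppb water mouse B, LRD 10 ppb water mouse C and arsenite-injected mouse E the middle part of the values (the interquartile range) spanned 2.56, 3.31 and 1.80, against 3.51 to 3.94 in the other 52 arrays. None of these 3 arrays was high for any of the 8 genes, and fits and medians below rest on the 52.

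A mouse was counted as high for a gene where its value was at least 2 above the median of that gene over the 52 arrays, which is 4-fold. By this measure 14 of the 52 mice were high for 1 or more of the 8 genes, and 38 for none. Each of the 8 genes had at least 1 high mouse, whereas 5.01% of all genes did. Since the genes were chosen for such values, this share is a description. The high mice were spread over 8 of the 12 groups. They were 3 mice injected with dexamethasone, 2 injected with saline, 2 given 10 ppb in AIN water, 2 LRD controls, 2 given 10 ppb in LRD food, and 1 each of AIN control, AIN 100 ppb water and LRD 100 ppb water. No mouse was high in AIN 10 ppb food, LRD 10 ppb water, arsenite injection or dexamethasone with arsenite. Saline mouse E was high for all 8 genes, and saline mouse D, AIN 10 ppb water mice A and E and dexamethasone mouse C for 7 each.

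**Figure D1:**
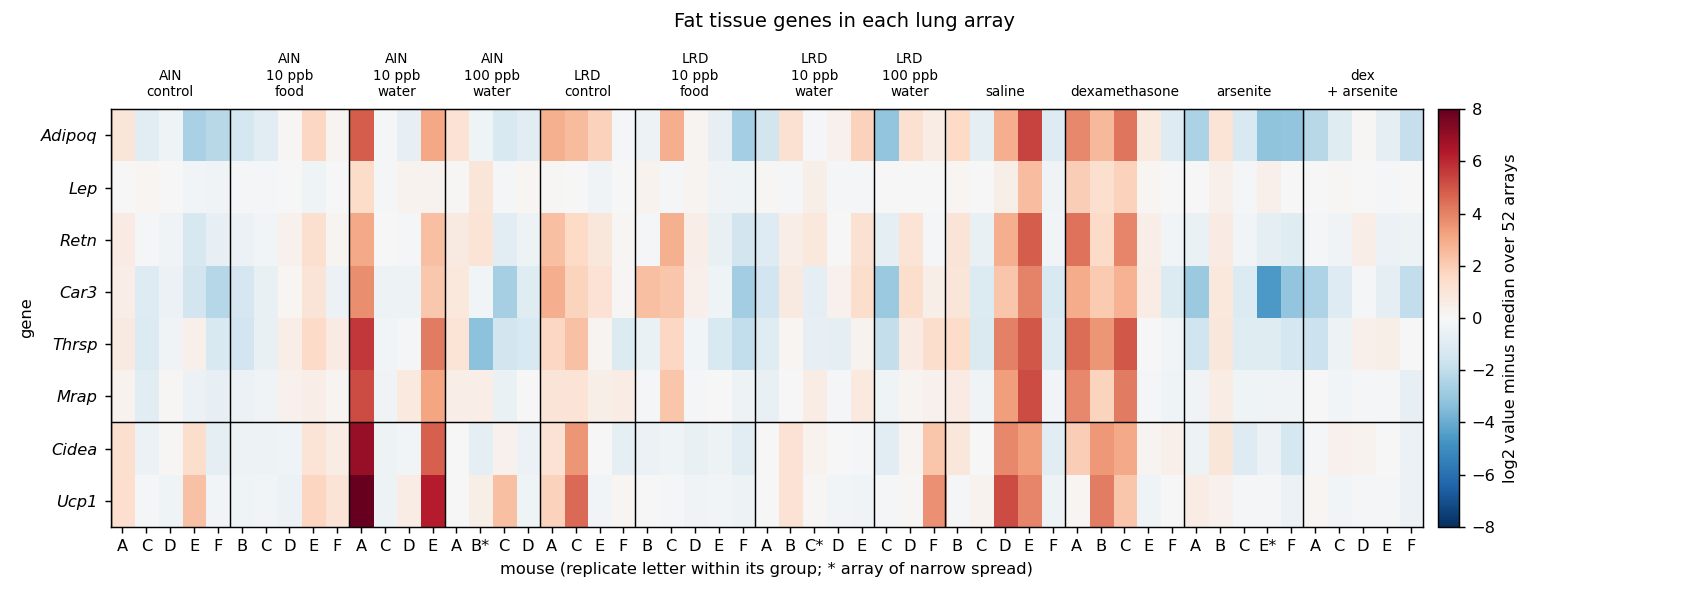
Log2 value minus the median over 52 arrays for 8 fat tissue genes (rows, Cidea and Ucp1 below the line) in 55 mice (columns, replicate letters within 12 groups; an asterisk marks an array of narrow spread). Red columns, with 5 or more genes at least 2 above their median, stand in AIN 10 ppb water A and E and saline D and E. Dexamethasone A, B and C are the others. LRD control A and C and LRD 10 ppb food C had 3 or 4 such genes.

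Adiponectin, the product of Adipoq, is secreted by fat cells and raises insulin sensitivity. Its gene lies at chr16:23146536-23157968 (GRCm38.p6). Adipoq ran from 3.97 to 12.52 over the 52 arrays, with a median of 7.13, and 10 of 52 mice were high for it. In the AIN control mice A, C, D, E and F it read 8.11, 6.25, 6.81, 4.52 and 4.89. In AIN 10 ppb food mice B, C, D, E and F it read 5.73, 6.28, 7.19, 8.78 and 7.34, a range that overlapped that of the controls. In AIN 10 ppb water mice A and E it read 11.99 and 10.21, above every AIN control, and in mice C and D 7.03 and 6.50, inside the range of the controls. In AIN 100 ppb water mice A, C and D it read 8.27, 5.88 and 6.26, with 1 mouse just above the highest control.

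On the LRD diet Adipoq read 9.98, 9.68, 8.96 and 7.06 in control mice A, C, E and F. In LRD 10 ppb food mice B, C, D, E and F it read 6.74, 10.04, 7.32, 6.47 and 4.43, and in LRD 10 ppb water mice A, B, D and E 5.66, 8.35, 7.48 and 8.96. In LRD 100 ppb water mice C, D and F it read 3.99, 8.34 and 7.70. Each exposed LRD group overlapped the LRD controls, and the highest mouse of the LRD diet was an exposed mouse, food mouse C.

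Among injected mice Adipoq read 8.75, 6.32, 10.05, 12.52 and 6.10 in saline mice B, C, D, E and F. It read 10.99, 9.72, 11.38, 7.92 and 6.11 in dexamethasone mice A, B, C, E and F. With arsenite it read 4.57, 8.24, 5.89 and 3.97 in mice A, B, C and F, and with dexamethasone and arsenite 4.91, 6.17, 7.21, 6.36 and 5.26 in mice A, C, D, E and F. The saline and dexamethasone groups each held mice above 9 and mice near 6, and the groups that received arsenite by injection held none above 8.24. By group mean the order ran from dexamethasone (9.22 ± 2.20, SD, n = 5) through AIN 10 ppb water (8.93 ± 2.62, n = 4), LRD control (8.92 ± 1.31, n = 4) and saline (8.75 ± 2.68, n = 5) down to dexamethasone and arsenite (5.98 ± 0.92, n = 5) and arsenite (5.67 ± 1.90, n = 4). No neighbours in this order, for Adipoq or any of the other 7 genes, differed by more than the larger of their SDs. Sorting puts like means side by side, so this says nothing of groups further apart in the order. The ends for Adipoq, the dexamethasone group (9.22) and the arsenite group (5.67), lay further apart than either SD.

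**Figure D2:**
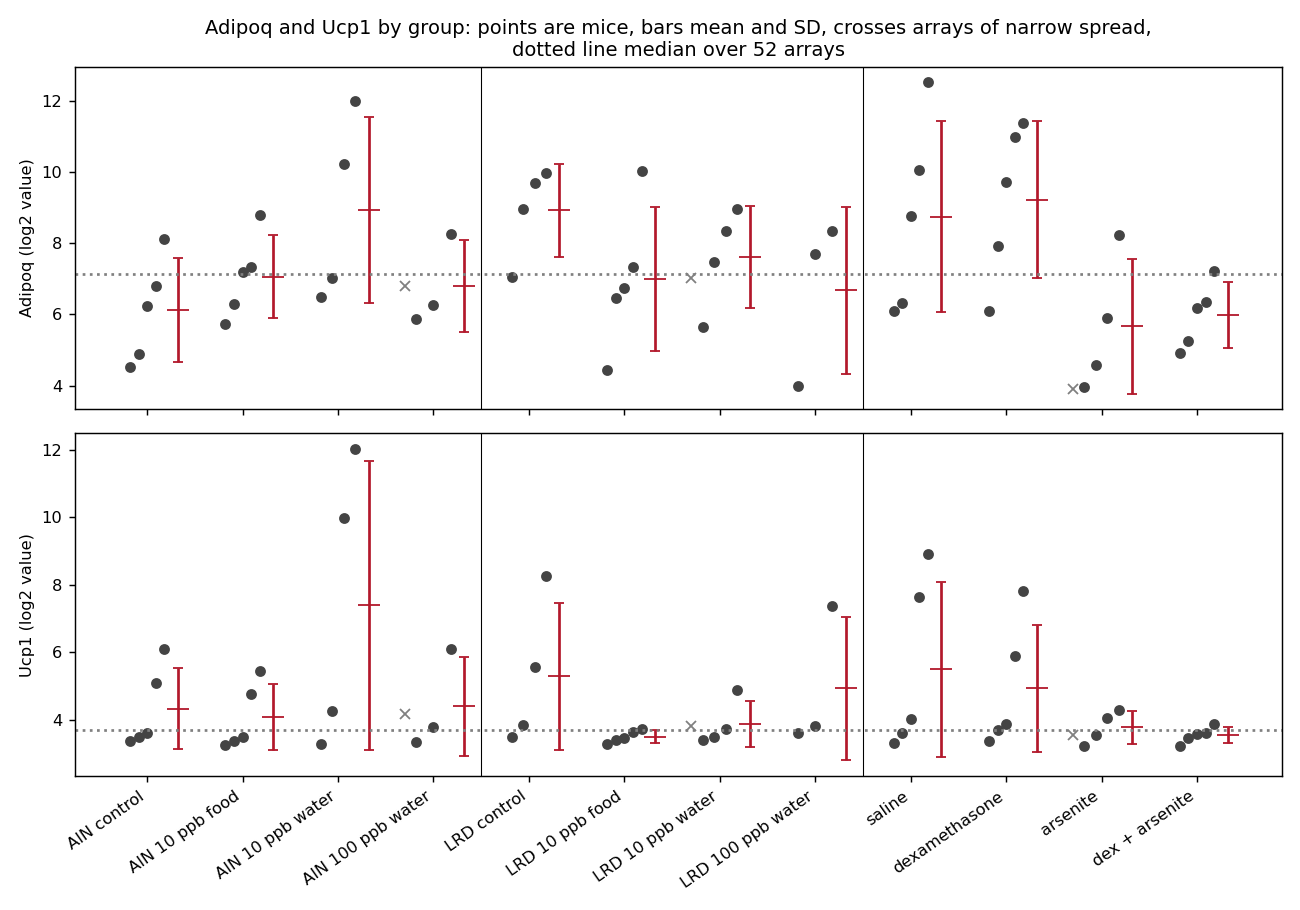
Adipoq (upper) and Ucp1 (lower) as log2 values in each mouse of 12 groups (points), with group mean and SD (bars), arrays of narrow spread (crosses) and the median over 52 arrays (dotted line). A few mice far above others of their group set the wide bars. In AIN 10 ppb water these were A and E, at an Adipoq of 11.99 and 10.21 and a Ucp1 of 12.03 and 9.99.

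Lep encodes leptin, the hormone that signals fat stores to the brain. It varied little in most mice (median 3.15, lowest 2.80), and only saline mouse E, at 5.61, was high for it. The next were dexamethasone mice A and C at 5.10 and 5.01, AIN 10 ppb water mouse A at 4.63 and dexamethasone mouse B at 4.45, all of them also high for Adipoq. AIN 10 ppb water mouse E, with an Adipoq of 10.21, had a Lep of 3.41, little above the 2.85 to 3.29 of the AIN controls.

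Retn encodes resistin, which in mice is a hormone of fat cells. It was high in 8 mice, from 8.45 in AIN 10 ppb water mouse E to 10.92 in saline mouse E, against a median of 6.07. Dexamethasone mice A and C read 10.41 and 9.97, AIN 10 ppb water mouse A 9.08, saline mouse D 8.99, LRD 10 ppb food mouse C 8.90 and LRD control mouse A 8.49. All 8 were also high for Adipoq.

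Thrsp (Spot 14), a nuclear protein that promotes fatty acid synthesis, was high in 8 mice with a median of 7.30. It reached 12.95 in AIN 10 ppb water mouse A, 12.28 in dexamethasone mouse C and 12.26 in saline mouse E. Its lowest high value was 9.64 in LRD control mouse C, and LRD control mouse A, at 8.97, lay just outside. Mrap, an accessory protein that carries the ACTH receptor to the cell surface, was high in 7 mice, with 9.89 in saline mouse E, 9.87 in AIN 10 ppb water mouse A and 8.80 in dexamethasone mouse C against a median of 4.67. The lowest of the 7, LRD 10 ppb food C, had an Mrap of 6.87 with the other 4 mice of its group between 4.28 and 4.63.

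Car3, carbonic anhydrase 3, is abundant in fat cells and also in slow skeletal muscle and liver. Its median was 9.65, and 10 mice were high for it. Of these, 9 were also high for Adipoq. The exception was LRD 10 ppb food mouse B, with a Car3 of 12.04 and an Adipoq of 6.74, below its median. The markers of skeletal muscle were high in that mouse, 11 of 11, at a mean of 10.79. In the LRD controls and the other LRD 10 ppb food mice the mean was 3.84 to 4.74. AIN control mouse E also had 11 of 11 muscle markers high, at a mean of 8.45, with a Car3 of 8.15, below its median. The part of muscle RNA in these Car3 values was not tested.

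Ucp1 carries the heat-making protein of brown fat mitochondria, and Cidea, which enlarges lipid droplets, is in mice a marker of brown fat. Ucp1, at chr8:83290348-83298456, ran from 3.21 to 12.03 with a median of only 3.70, and 10 mice were high for it. It read 12.03 and 9.99 in AIN 10 ppb water mice A and E but 3.28 and 4.27 in mice C and D. In the AIN control mice A, C, D, E and F it read 5.08, 3.59, 3.38, 6.08 and 3.48, so that mouse E among the controls was high as well. In AIN 10 ppb food mice B, C, D, E and F it read 3.38, 3.48, 3.26, 5.44 and 4.77, and none was high.

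In AIN 100 ppb water mice A, C and D Ucp1 read 3.77, 6.08 and 3.34. On the LRD diet it read 5.57, 8.26, 3.49 and 3.84 in control mice A, C, E and F, and 3.59, 3.80 and 7.38 in 100 ppb water mice C, D and F. In LRD 10 ppb food mice B, C, D, E and F it read 3.73, 3.63, 3.39, 3.46 and 3.28, and in LRD 10 ppb water mice A, B, D and E 3.73, 4.87, 3.49 and 3.39. LRD control mouse C and LRD 100 ppb water mouse F stood far above the other mice of their groups, and the other kept mice of the diet lay between 3.28 and 5.57.

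Among injected mice Ucp1 read 3.59, 4.01, 8.91, 7.63 and 3.32 in saline mice B, C, D, E and F, and 3.86, 7.81, 5.90, 3.38 and 3.68 in dexamethasone mice A, B, C, E and F. With arsenite it read 4.30, 4.04, 3.53 and 3.22 in mice A, B, C and F, and with dexamethasone and arsenite 3.87, 3.45, 3.61, 3.57 and 3.21 in mice A, C, D, E and F, so that no mouse with injected arsenite was high.

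Cidea was high in 8 mice, all of them also high for Ucp1. It read 12.43 and 10.26 in AIN 10 ppb water mice A and E, 9.33 and 8.83 in saline mice D and E, 9.02 in LRD control mouse C, 8.93 and 8.50 in dexamethasone mice B and C, and 7.68 in LRD 100 ppb water mouse F. The other 2 mice high for Ucp1, AIN control E and AIN 100 ppb water C, had a Cidea of 6.88 and 5.85 against a median of 5.49.

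Adipoq and Ucp1 were high in partly different mice. Of the 52 mice, 7 were high for both Adipoq and Ucp1, 3 for Adipoq alone and 3 for Ucp1 alone. In dexamethasone mouse A Adipoq stood 3.86, Retn 4.34, Thrsp 4.48 and Mrap 3.83 above their medians, while Ucp1 stood 0.16 above its own and Cidea 1.96, just short of the threshold. In LRD 10 ppb food mouse C both brown fat genes were near their medians, with Adipoq 2.91 and Retn 2.83 above their medians and Ucp1 at -0.07 and Cidea at -0.32. LRD control mouse A had Adipoq 2.86 above and Ucp1 1.86 above, just short of the threshold.

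The opposite split was seen in AIN control mouse E, with Ucp1 2.37 above its median and Adipoq at -2.61, in AIN 100 ppb water mouse C, with 2.38 and -1.25, and in LRD 100 ppb water mouse F, with 3.68 and 0.57. Where both were high, the balance differed. In AIN 10 ppb water mouse A, Ucp1 stood 8.33 and Cidea 6.94 above their medians, more than the 4.87 of Adipoq. In saline mouse E the order was turned, with Adipoq 5.39, Retn 4.85 and Mrap 5.22 above their medians and Ucp1 and Cidea 3.92 and 3.34. These distances start from unlike medians, 3.70 for Ucp1 and 7.13 for Adipoq. As log2 values Ucp1 and Adipoq read 12.03 and 11.99 in AIN 10 ppb water mouse A. In saline mouse E they read 7.63 and 12.52. In these bulk samples, more cells of a type and more RNA per cell cannot be told apart.

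**Figure D3:**
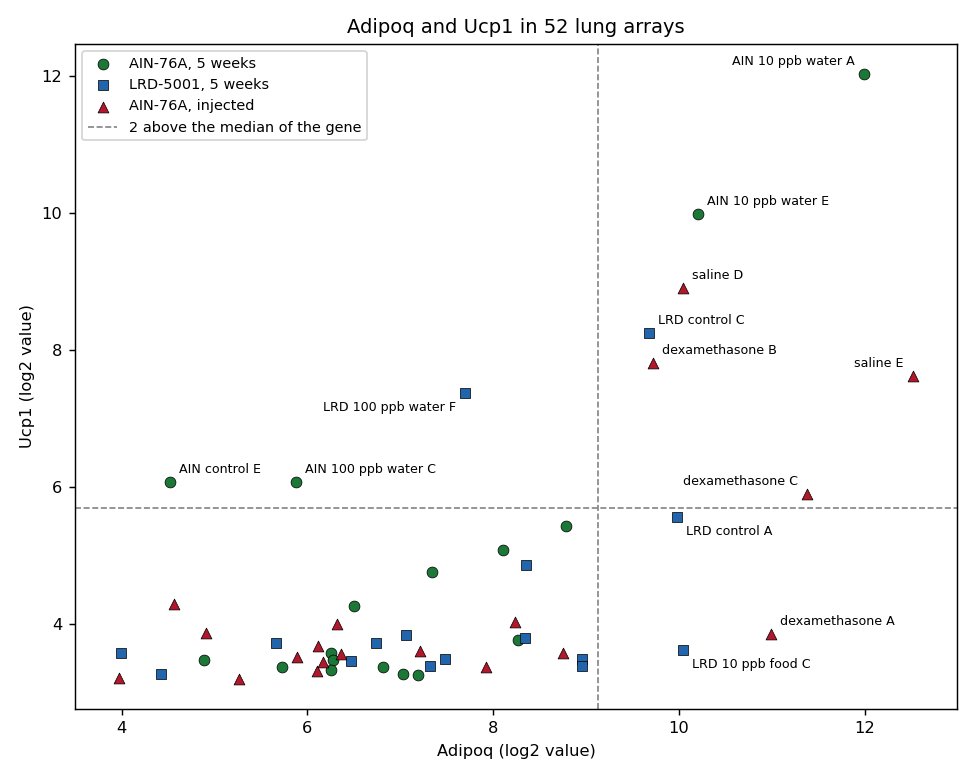
Ucp1 against Adipoq (log2 values) in 52 mice, by diet and treatment (symbols); dashed lines mark 2 above the median of each gene. The 7 mice at upper right carried both genes, 3 at lower right Adipoq alone and 3 at upper left Ucp1 alone.

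Over the 52 mice the correlations among the genes followed the same lines. They are descriptions, since the mice share groups and array batches and a few mice hold the highest values. Adipoq ran closest with Car3 (Pearson r = 0.955, Spearman rho = 0.961) and Retn (0.935 and 0.947), and least by Pearson r with Ucp1 (0.598, rho 0.502) and by Spearman rho with Lep (0.439, r = 0.669). Cidea lay between, with an r of 0.883 with Thrsp, 0.806 with Mrap and 0.754 with Adipoq. Ucp1 ran closest with Cidea (0.936 and 0.765). Within the 42 mice that were not high for Adipoq, the correlation of Adipoq with Car3 was 0.91 and with Retn 0.897, so that the relation was also present at low values.

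Outside the 10 genes, the 8 genes most like Adipoq by Pearson r over the 52 mice were Fabp4 (0.939), Tmem45b (0.905), Adig (0.886), Dgat2 (0.868), Aoc3 (0.861), Cyp2e1 (0.853), Ephx2 (0.845) and Plin4 (0.829). Their Spearman rho ran from 0.776 to 0.920. Here each gene was read by its probe set with the highest r. For Fabp4 this was a dimmer one (median 5.42) than the one read further below (median 8.84). Fabp4 carries fatty acids in fat cells, Adig (adipogenin) and Plin4 belong to lipid storage, and Dgat2 makes triglyceride. The 8 most like Ucp1 were Gpd1 (0.866), Elovl6 (0.849), Otop1 (0.837), Hadhb (0.814), Cox8b (0.814), Dlat (0.809), Elovl3 (0.791) and Nrg4 (0.784). Elovl3, Otop1 and Cox8b are known from brown fat, and Hadhb and Dlat encode mitochondrial enzymes of fatty acid and pyruvate oxidation. For Ucp1 these values leaned on a few mice: without the 2 mice farthest from the median, AIN 10 ppb water A and E, they fell to between 0.608 and 0.770, and the Spearman rho over all mice ran from 0.432 to 0.676.

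The bases before the start of transcription are shown for 3 genes, Adipoq and Thrsp (r = 0.900 with each other) and Ucp1, the brown fat gene, which ran less closely with them (r = 0.598 and 0.743). Each is the 250 bases before the start, 5′ to 3′ on the strand of the gene, from RefSeq on GRCm38.p6. The places are chr16:23146286-23146535 (plus strand) for Adipoq, chr7:97417551-97417800 (minus strand) for Thrsp and chr8:83290098-83290347 (plus strand) for Ucp1. Capitals mark every match to CCAAT on either strand (ATTGG where it lies on the other strand).
Adipoq: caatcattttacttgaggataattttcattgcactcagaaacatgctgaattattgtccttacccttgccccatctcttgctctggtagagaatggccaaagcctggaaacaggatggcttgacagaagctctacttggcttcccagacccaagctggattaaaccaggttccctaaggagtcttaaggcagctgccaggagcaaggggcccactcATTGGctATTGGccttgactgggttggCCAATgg
Thrsp: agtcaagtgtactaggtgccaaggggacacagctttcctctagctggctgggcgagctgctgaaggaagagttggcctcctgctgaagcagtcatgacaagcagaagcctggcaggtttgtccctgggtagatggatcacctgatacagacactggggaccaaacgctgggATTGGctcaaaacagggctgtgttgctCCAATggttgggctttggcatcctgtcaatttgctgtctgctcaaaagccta
Ucp1: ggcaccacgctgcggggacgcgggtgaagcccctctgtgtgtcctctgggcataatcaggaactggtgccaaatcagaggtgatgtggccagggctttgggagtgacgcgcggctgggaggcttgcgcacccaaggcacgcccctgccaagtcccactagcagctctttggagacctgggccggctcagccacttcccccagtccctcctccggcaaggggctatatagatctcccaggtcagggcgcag
Adipoq held 3 matches and Thrsp 2, none of them overlapping, and Ucp1 held none. Retn and Lep held none either, so that the match did not follow the correlation with Adipoq. Of 32851 promoter windows of this length 33.8% held at least 1. Among the same 3 windows none matched TATAAA (12.4% of all windows), TTGCNNAA (9.6%, where N is any base), TGACGT (6.5%) or the DR1 repeat read by PPAR and RXR factors (0.3%), on either strand. These are matches of letters in 1 short window and no evidence of binding. Windows of 5 of the 8 measured genes were in the table used.

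Genes of the same tissues outside the 10 were read from 3 further lists. In AIN 10 ppb water mouse A, 10 of 20 other fat cell genes, 11 of 17 other brown fat genes and 7 of 12 lipogenesis genes were high, against 1.28% of all genes in that mouse. Its Fabp4 read 13.09 against a median of 8.84, Gpd1, which makes glycerol phosphate, 12.55 against 7.20, Cox8b 12.45 against 7.76, and Fasn, the fatty acid synthase, 12.86 against 9.87. The same mouse had the highest value of Elovl3 (8.79, median 3.04) and Dio2 (7.35, median 4.46) among the 14 high mice.

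In saline mouse E 9 of 20 other fat cell genes but 1 of 17 other brown fat genes were high, against 0.671% of all genes. In dexamethasone mouse C the counts were 7 and 2 (0.319%), and in dexamethasone mouse A 4 and 0 (0.396%). In AIN 10 ppb water mouse E they were 3 and 3 (1.88%), in saline mouse D 2 and 1 (0.396%), in dexamethasone mouse B 1 and 1 (0.159%), in LRD control mouse C 2 and 0 (0.077%), and in LRD control mouse A 1 and 5 (1.15%). Outside AIN 10 ppb water mouse A, fewer than 10 genes of any of these lists were high. The 5 genes in LRD control mouse A were Cox8b, Cox7a1, Elovl3, Slc27a2 and Fabp3, while its Ucp1 and Cidea were not high. Liver and heart markers were high in that mouse too, as given below, and their part in these 5 was not tested.

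In the mice high for Ucp1 but not Adipoq, no gene of the 3 lists was high. AIN control mouse E had 0.17%, AIN 100 ppb water mouse C 0.236% and LRD 100 ppb water mouse F 0.0275% of all genes high. The same held for LRD 10 ppb food mice B and C, with 0.242% and 0.104%. Among the 38 mice high for none of the 8 genes, at most 1 gene of any of the 3 lists was high. The well-known fat cell genes Lpl and Cd36, which handle blood lipids, were high in none of the 52 mice: Lpl ran from 10.94 to 12.88 and Cd36 from 10.70 to 12.32, both with high medians (11.50 and 11.74) in lung.

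Markers of other tissues of the chest and abdomen were also high in some of these mice, and their part in the values of the fat tissue genes was not tested. Skeletal muscle markers (Acta1, Tnnc2, Ckm, Tnni2 and 7 more) were high in 4 of the 14 mice, with 11 of 11 in AIN control E, AIN 10 ppb water A and LRD 10 ppb food B and 9 of 11 in dexamethasone A, and in 0 of the other 38. Acta1, the actin of skeletal muscle, read 9.62, 12.35, 12.00 and 8.02 in these mice against a median of 3.87. Thymus markers were high in 2 of the 14 and 0 of the 38: 7 of 8 in AIN 10 ppb water E, with Rag1, the recombinase of immature T cells, at 11.49 against a median of 2.89, and 6 of 8 in saline E.

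Liver markers were high, 8 of 8, in LRD control A and saline D, and 3 of 8 in dexamethasone A, and among the other 38 mice at most 4 of 8 were high. Alb, which encodes albumin, read 13.35 in LRD control A against a median of 5.14. In that mouse 8 of 10 heart markers were high too, and Nppa, the atrial natriuretic peptide, read 13.48 against 7.28. Krt4, a keratin of squamous epithelium, read 9.71 in dexamethasone A against 3.53. LRD control C, LRD 10 ppb food C, AIN 100 ppb water C, LRD 100 ppb water F and dexamethasone B and C had no more than 3 high genes in any of these lists. The mean over the heart markers was still 10.87 in dexamethasone C and 10.67 in AIN 10 ppb water A. It was 11.33 in LRD control A and 6.25 to 10.25 in the other 38 mice.

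**Figure D4:**
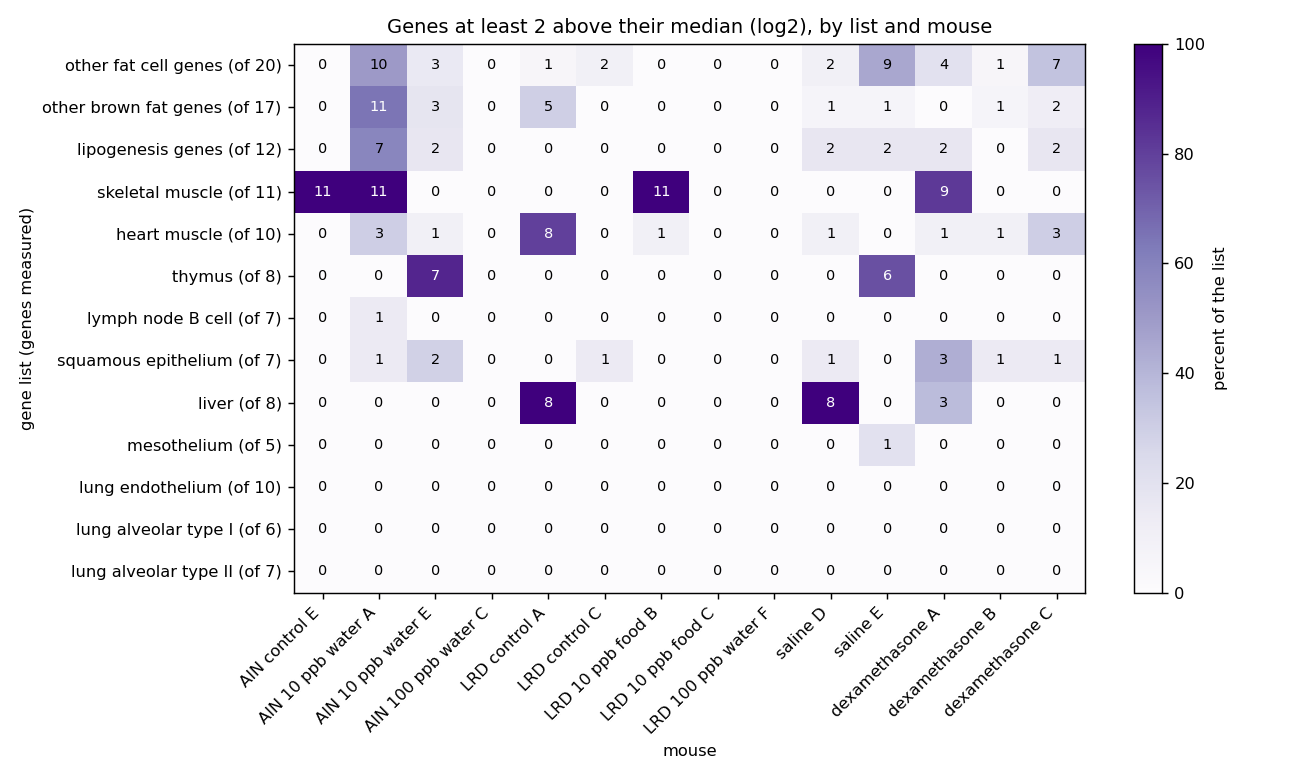
Number of genes at least 2 above their median in 13 gene lists (rows, with the genes measured) for the 14 mice high for 1 or more fat tissue genes (columns), shaded by percent of the list. Skeletal muscle, thymus and liver lists fill up in different mice, and the lung lists hold 0 high genes in all 14.

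Lung markers were lower in AIN 10 ppb water mice A and E, the 2 with the most brown fat signal. Muscle markers (mouse A) and thymus markers (mouse E) were high in them too, and the part of each tissue was not tested. The mean over 10 endothelial genes was 9.74 in mouse A and 9.51 in mouse E, against 10.03 to 10.81 in the 38 mice with no high fat gene. The mean over 7 type II cell genes was 11.30 and 10.95 against 11.58 to 12.22, and over 6 type I cell genes 10.68 and 10.72 against 11.14 to 11.45. In dexamethasone mouse C, with an Adipoq of 11.38, the endothelial mean of 10.48 and the type II mean of 11.90 were within the range of the 38, and the type I mean of 11.01 was below it. The lowest type I means of the saline and LRD control groups, 10.82 and 11.04, were below that range as well.

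In the groups that chose the genes, the 8 genes were on average 2.24 higher in AIN 10 ppb water than in AIN control mice, from 0.55 for Lep to 3.07 for Ucp1. This mean was 1.27 without mouse A and rose to 2.99 without mouse C. In mice C and D of this group each of the 8 genes lay within 1 of its median over the 52 arrays. With 10 ppb in food the mean difference was 0.31, and 5 of 8 genes were higher. Neither value was tested.

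For the remaining 9 comparisons limma was fitted over all 45037 probe sets with Benjamini-Hochberg adjustment, and none of the 8 genes passed an adjusted p of 0.05 in any. These p-values rest on the spread within groups, pooled over all groups of a fit. The labels call the mice biological replicates. For AIN 100 ppb water the fit includes AIN 10 ppb water, with a Ucp1 SD of 4.28. In AIN 100 ppb water and AIN control that SD was 1.48 and 1.20. In 3 of the comparisons, AIN 100 ppb water, saline against uninjected control and the diets, AIN mice that helped to choose the genes enter the fit, so that those are no independent test. With 100 ppb in AIN water 0 of 8 passed (background 0%) and 0 of 8 had an unadjusted p under 0.05 (background 1.83%). In the LRD diet 0 of 8 passed with 10 ppb in food, 10 ppb in water and 100 ppb in water (background 0% each), with 2 (Cidea and Ucp1), 0 and 0 at an unadjusted p under 0.05 (background 2.62%, 3.68% and 3.54%). Adipoq differed from LRD controls by -1.92 in food, -1.31 in 10 ppb water and -2.25 in 100 ppb water (limma, adjusted p = 1, 0.998 and 1). The intervals were wide, from -4.73 to 0.24 at 100 ppb, so that a loss of several fold could not be told from none. Markers of other tissues were lower too, and their part was not tested. In all 3 LRD comparisons 8 of 8 liver markers were lower (medians -1.31, -2.13 and -2.26). So were 10 of 10 heart markers (-0.69, -0.90 and -1.43). The 3 comparisons share the LRD controls, where mouse A had a liver mean of 10.83 (group median 5.42). Its heart mean was 11.33 (group median 8.92). In AIN 100 ppb water Adipoq differed from the AIN controls by 0.69.

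After injection of dexamethasone, a synthetic glucocorticoid, 0 of 8 genes passed against saline (background 0.626%) and 0 had an unadjusted p under 0.05 (background 9.05%). Adipoq differed by 0.48 (95% interval -1.93 to 2.88) and Ucp1 by -0.57 (-2.54 to 1.41), and 1 mouse turned either sign: Adipoq differed by -0.19 without saline mouse F and Ucp1 by 0.29 without saline mouse D. After arsenite 0 of 8 passed (background 0%) and 3 had an unadjusted p under 0.05 (background 6.72%), namely Adipoq, Car3 and Cidea. All 8 differences were below 0, with Adipoq at -3.08 ± 1.22 (SE, limma, adjusted p = 0.685), Car3 at -2.57 and Ucp1 at -1.72. After both agents 0 of 8 passed (background 0.755%) and 2, Adipoq and Car3, had an unadjusted p under 0.05 (background 9.89%). All 8 differences were again below 0, with Adipoq at -2.77 ± 1.15 (limma, adjusted p = 0.401) and Ucp1 at -1.95. The 8 genes ran together over the mice (Pearson r of 0.955 for Adipoq with Car3 and 0.936 for Cidea with Ucp1). Their shared sign is therefore not 8 separate results.

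These 3 comparisons share the saline mice, and so does saline against uninjected AIN control, where all 8 genes were higher in the saline group. The genes were picked for values above those of the same AIN controls, so this direction is not independent of the choice. There 0 of 8 passed (background 0.00222%) and 3, Adipoq, Retn and Mrap, had an unadjusted p under 0.05 (background 4.69%). Adipoq differed by 2.63 and Ucp1 by 1.17. Leaving out saline mouse D or E made these differences smaller. Without E the Adipoq difference was 1.69 against AIN control and -2.13 for arsenite against saline, and without D the Ucp1 differences were 0.32 and -0.86. Across both diets, LRD against AIN-76A over 33 mice given arsenite or none for 5 weeks, 0 of 8 genes passed (background 0.16%) and 0 had an unadjusted p under 0.05 (background 4.21%). Adipoq differed by 0.32 and Ucp1 by -0.65. The effect of dexamethasone was also compared with and without arsenite, and the difference of effects for Adipoq was -0.16 ± 1.67 (SE, limma, adjusted p = 0.999).

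**Figure D5:**
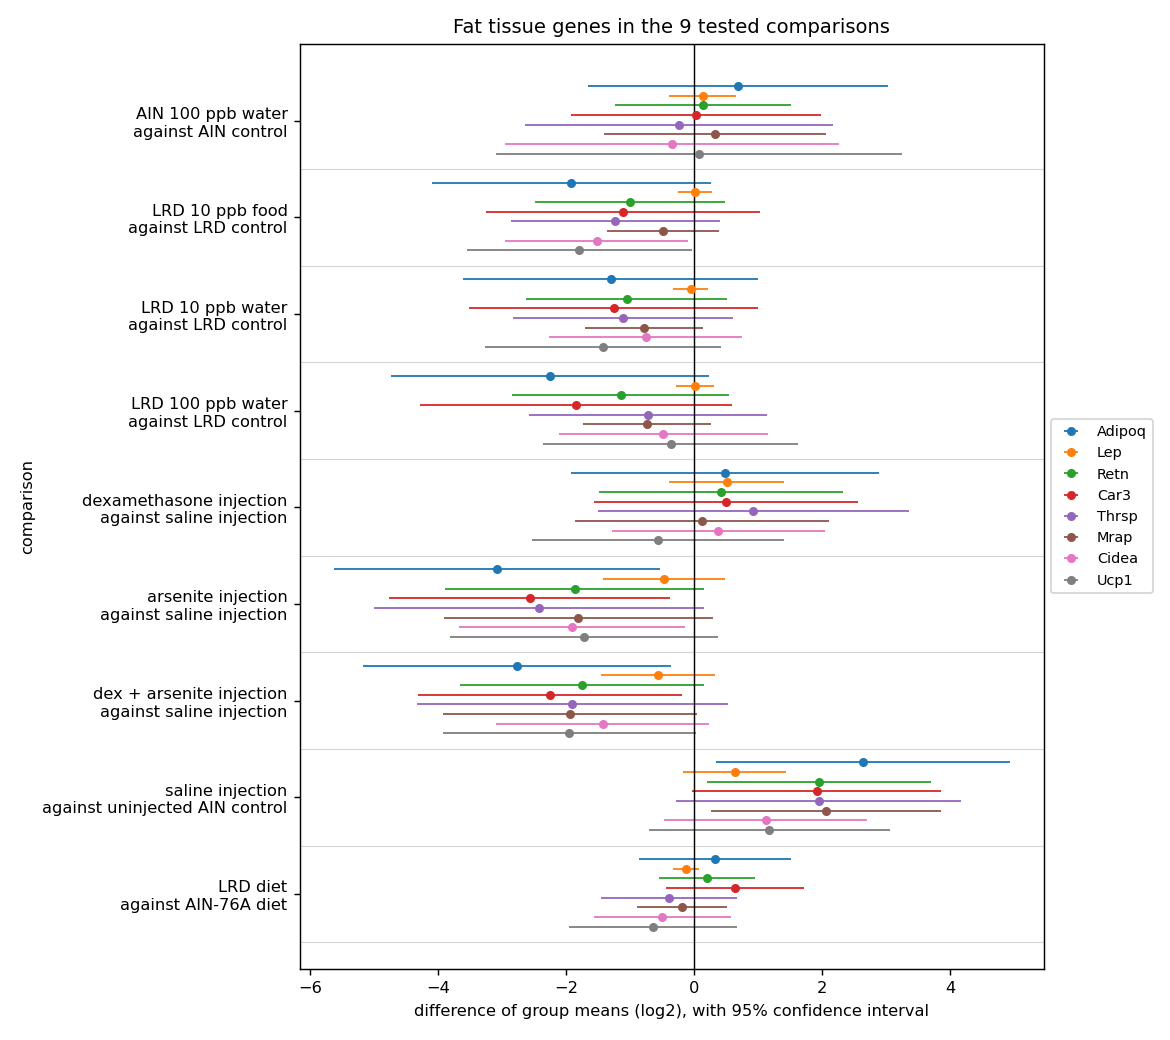
Difference of group means on the log2 scale (horizontal axis, points) with 95% confidence interval (lines) for 8 fat tissue genes in 9 comparisons (vertical axis). No gene passed an adjusted p of 0.05. The points for injected arsenite, alone or with dexamethasone, all lie below 0. Those for saline against uninjected control, whose AIN control mice helped to choose the genes, all lie above 0. The 8 genes ran together over the mice, so their signs are not independent.

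Of 20 other fat cell genes, 17 other brown fat genes and 12 lipogenesis genes, the only one to pass in any of the 9 comparisons was Lpl, lipoprotein lipase, which was 0.76 higher after dexamethasone and arsenite than after saline (limma, adjusted p = 0.0461). The medians of these lists for arsenite against saline were -0.66, -0.18 and -0.54, beside -1.88 for the 8 genes and 0.01 for all probe sets. For saline against uninjected control they were 0.55, 0.23 and 0.50, beside 1.93 and -0.01. Markers of other tissues also differed in both comparisons, and their part in the differences of the fat tissue genes was not tested. For saline against uninjected control all 8 liver and all 8 thymus markers were higher (medians 1.12 and 0.70) and all 11 skeletal muscle markers lower (-0.88). Single mice far above their group enter each of these directions. The mean over the liver markers was 8.61 in saline mouse D, with group medians of 4.6 (saline) and 3.96 (AIN control). For thymus it was 8.03 in saline mouse E, with group medians of 4.25 and 4.29. For muscle it was 8.45 in AIN control mouse E, with group medians of 4.17 and 4.04. For arsenite against saline all 8 liver and all 8 thymus markers were lower (-0.55 and -0.79), and 9 of 10 endothelial markers were higher (0.32). Saline mice D and E enter this comparison too, and the group medians after arsenite were 4.46 for liver and 4.19 for thymus.

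The arrays fell into 5 batches of 11 by the names of the raw array files in the labels, with the groups spread over them. Of the 14 high mice 7 lay in batch 2, with 1, 2, 2 and 2 in batches 1, 3, 4 and 5, and Adipoq was high in 5 of 11 mice of batch 2 and in 1 or 2 mice of each other batch. With the batch as a block 0 of 8 genes passed in each of the 9 comparisons, and Adipoq differed by -3.76 for arsenite against saline and by 2.60 for saline against uninjected control. Only batches 2 and 5 held kept mice of both groups for arsenite against saline, and their saline mice were D and E. There the difference was -5.47 and -7.59. No other saline mouse enters these values, nor does arsenite mouse B, at 8.24 in batch 4. Within batches 1, 2, 3 and 5 saline against uninjected control gave -0.15, 5.53, -0.57 and 7.63, so that the difference was present in the batches of mice D and E and not in the other 2. Each of these values rests on 1 or 2 mice a group.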

How the data were processed

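Total RNA of frozen lung was hybridised by the authors to Affymetrix whole-genome mouse arrays, 1 array a mouse. The deposited values are log2 expression values summarised by the authors with RMA, used here as deposited. Of the probe sets, 64 controls were left out and 45037 tested, of which 34945 carried 1 gene symbol, 932 several and 9160 none in the annotation used. Arrays have no read depth, and their number limits the precision. The members and gene lists were chosen with earlier results of these data known, and so were the tests. Groups came from the sample descriptions. Each comparison used limma 3.58.1 in R 4.3.3 (lmFit and eBayes) with Benjamini-Hochberg adjustment over all probe sets at 0.05. Comparisons with untreated controls were fitted over the 4 groups of their diet, those with saline over the 4 injected groups, saline against uninjected control over these and the AIN controls, and the diets over the 8 uninjected groups. The 3 arrays of narrow spread were left out. The fitting script was tested on simulated data.

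Genes named are the members, up to 4 per list with the highest maximum, and the 8 most correlated with Adipoq and with Ucp1. Elovl3 and Dio2 and the mice described singly were chosen after their values were seen. Alternatives were all arrays, array weights, array batch or replicate letter as a block, a filter on dim probe sets, quantile normalization, median centring, 1 model over 12 groups, the mean of all probe sets of a gene, and leaving out each mouse. The other probe sets of Thrsp and Car3 correlated with the one used at 0.76 to 0.99 over the mice, except 1 of Thrsp, which like the other of Mrap varied little. Replicate letters did not pair the mice: deviations from group means of mice with the same letter had a median correlation of 0.01 over 206 pairs, against -0.01 over 1030 pairs with other letters and 0.19 over 239 pairs of the same array batch.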

Additional observations from a re-analysis of the deposited data

Results flagged for a closer look

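In 80 sets of values, 1 for each of 8 genes in each group of 4 or 5 mice, 4 had a single mouse far from the others of its group by Dixon's criterion, where chance gives about 1 in 20. Lep was 5.61 in saline mouse E, with the other 4 saline mice between 2.85 and 3.60. Cidea was 6.62 in LRD 10 ppb water mouse B, with the others between 5.37 and 5.45. Mrap was 6.87 in LRD 10 ppb food mouse C, with the others between 4.28 and 4.63, and 5.27 in arsenite-injected mouse B, with the others between 4.34 and 4.41. The pairs of high mice in the saline and AIN 10 ppb water groups do not meet this criterion, which looks for 1 mouse apart.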

How the results depend on the processing

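At a threshold of 1 above the median, 24 mice were high for at least 1 gene, 18 for Adipoq, 15 for Ucp1 and 4 for all 8 genes, and at 3 above it 9, 5, 7 and 0. The mean difference of the 8 genes in AIN 10 ppb water ran from 1.27 to 2.99 when each mouse was left out, and in food from 0.06 to 0.56. With a replicate block (the letters, which do not pair the mice) these means were 2.10 and 0.92, and with the mean of all probe sets of a gene 1.90 and 0.26. In the 9 tested comparisons 0 of 8 genes passed in limma under every alternative run, and 0 to 0 when each mouse was left out. The lowest adjusted p over all settings was 0.221. Of 639 differences under alternatives 11 changed sign (Retn, Car3 and Ucp1 in AIN 100 ppb water, Lep on the LRD diet and Mrap after dexamethasone), the furthest being Ucp1 in AIN 100 ppb water, 0.07 in the report and -0.60 once array batch was a block, and of 832 with a mouse left out 43 did. Counts over all probe sets moved more: for dexamethasone 282 became 8 with all arrays, 1245 with array weights, 475 with the batch and 36 with the replicate block and 515 in 1 model. For both agents 340 became 7, 1125, 936, 68 and 567, and saline against uninjected control went from 1 to 0 with all arrays. The cause was not tested.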
